A study of Rattus norvegicus with 8 samples.

Results

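The genes examined here encode the proteasome, and the members are the rows of the deposited table whose symbol begins with Psma, Psmb, Psmc, Psmd, Psme, Psmf or Psmg followed by a number. The rule took 50 of the 32883 genes in the table, and 46 of them reached the minimum mean of 1 FPKM for testing. FPKM is a fragment count scaled for transcript length and sequencing depth. The rule also took genes of assembly chaperones (Psmg1 to Psmg4, Psmd5, Psmd9 and Psmd10) and of an inhibitor (Psmf1), which are not subunits of the finished proteasome. It further took a gene and a pseudogene with none of these roles. They are Psmc3ip, which encodes a partner of the meiotic recombinases, and Psme1-ps1. RNA was measured in cultures of oligodendrocyte precursor cells (OPCs), the proliferating glial cells that become myelinating oligodendrocytes, from 4 male and 4 female libraries. All cultures came from the cerebral cortex of Sprague Dawley rats aged 1 to 2 days. Mixed glia were grown in medium with 20% serum, and the cells that did not adhere were then kept for 4 to 5 days with PDGF and FGF at 10 ng/ml each and 2% of the B27 supplement. No transgene, mutation or drug is named in the labels, so the sex of the animals is the factor that separates the groups. The labels do not say whether libraries of a sex came from separate animals or litters. The p-values therefore set a difference against the spread between these libraries, moderated over all genes, and that spread may be technical.

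The proteasome is the barrel-shaped protease that degrades proteins tagged with ubiquitin. Its core consists of outer rings of alpha subunits, which gate the entrance, around inner rings of beta subunits, of which 3 kinds carry the active sites. A regulatory cap binds the ubiquitin chain, removes it and unfolds the substrate with a ring of ATPases, while other activators open the core without ubiquitin. In immune cells and under interferon the catalytic subunits Psmb5, Psmb6 and Psmb7 are replaced by Psmb8, Psmb9 and Psmb10, which gives the immunoproteasome and changes the peptides made for antigen presentation. When proteasome activity falls short, the transcription factor Nrf1 (Nfe2l1) raises subunit genes together through antioxidant response elements in their promoters.

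Promoter windows are shown from the catalytic group, in which the largest difference among the members lay. Those shown belong to the catalytic genes whose window held a match to a searched motif. RefSeq windows of assembly GRCr8, from 250 bases before to 50 bases after the start of a gene, were matched by symbol for 44 of the 50 members. The antioxidant response element core was searched as TGACNNNGC and the interferon stimulated response element core as GAAA, any 2 bases and a further GAAA, each on both strands. No window shown here held both motifs. Below, each sequence runs 5′ to 3′ along its gene, from 250 bases before to 10 bases after the start, and capitals mark the matches. The windows are chr19:50743283-50743542 (minus strand) for Psmb10, chr20:4657022-4657281 (minus strand) for Psmb8, chr15:32047370-32047629 (minus strand) for Psmb5 and chr10:55737638-55737897 (plus strand) for Psmb6.
Psmb10: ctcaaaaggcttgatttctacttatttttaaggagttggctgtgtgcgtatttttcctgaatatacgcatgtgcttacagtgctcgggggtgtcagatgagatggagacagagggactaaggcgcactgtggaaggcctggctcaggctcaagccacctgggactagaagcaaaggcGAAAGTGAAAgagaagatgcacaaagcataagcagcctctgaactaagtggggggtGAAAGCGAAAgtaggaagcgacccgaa
Psmb8: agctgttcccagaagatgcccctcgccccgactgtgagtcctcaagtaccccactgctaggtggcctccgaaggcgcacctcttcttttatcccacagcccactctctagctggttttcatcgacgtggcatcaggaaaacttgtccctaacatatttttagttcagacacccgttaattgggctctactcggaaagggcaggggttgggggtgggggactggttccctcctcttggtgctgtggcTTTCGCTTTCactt
Psmb5: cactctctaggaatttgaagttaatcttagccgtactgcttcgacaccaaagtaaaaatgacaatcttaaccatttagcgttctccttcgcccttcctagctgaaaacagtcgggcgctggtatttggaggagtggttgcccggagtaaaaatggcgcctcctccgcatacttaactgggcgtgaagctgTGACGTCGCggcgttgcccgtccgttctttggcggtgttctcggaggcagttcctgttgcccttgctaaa
Psmb6: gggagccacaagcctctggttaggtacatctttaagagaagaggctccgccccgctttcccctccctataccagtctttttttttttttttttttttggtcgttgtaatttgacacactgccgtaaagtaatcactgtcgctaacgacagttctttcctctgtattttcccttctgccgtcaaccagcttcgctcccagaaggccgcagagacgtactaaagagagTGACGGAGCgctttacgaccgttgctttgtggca

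Psmb10 held 2 matches to the interferon motif, which began 73 and 17 bases before its start. Psmb8 held 1, which began 4 bases before the start and read on the opposite strand. Psmb5 and Psmb6 each held 1 match to the antioxidant motif, 60 and 24 bases before the start. No match to either motif was found for Psmb7 or Psmb9. Among all 44 member windows, 7 (15.9%) held the interferon motif, compared with 3.92% of the 33469 windows in the table. The antioxidant motif was in 8 member windows (18.2%), compared with 12.1% of all windows. A match describes letters and does not show that a factor binds there.

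The cultures carried the markers of their label. The OPC markers Pdgfra, Cspg4, Olig1, Olig2 and Sox10 summed to between 1597 and 1824 FPKM in the male libraries and between 1934 and 2007 FPKM in the female ones, and 2 of the 5 were called as higher in female cultures. Microglia and macrophage markers were also present. All 15 tested markers of that list lay on the female side and 12 were called, with summed levels of 47.9 to 65.7 FPKM in male and 181 to 228 FPKM in female libraries. Neuron markers summed to 286 to 305 and 244 to 350 FPKM and astrocyte markers to 96.9 to 122 and 85.1 to 103 FPKM, in male and female libraries respectively. Of 10 tested neuron markers 7 were positive (male minus female) and 3 negative, and 5 were called as higher in male cultures, and of 4 tested astrocyte markers none was called. Slc17a7 was listed at 0 in every library. Markers of endothelial cells and pericytes summed to at most 2.58 FPKM and those of T cells and neutrophils to at most 1.90 FPKM, with Cldn5, Cd3e, S100a8 and S100a9 at 0 in all 8. Mitochondrially encoded genes held 19.3% to 20.5% of the summed FPKM in male and 24.2% to 28.4% in female libraries. Steps between low values gave relative depths, with male 1 set to 1, from 0.303 in female 1 upwards, with 0.981 in female 3, and the absolute depth is unknown. In whole cultures such as these, fewer cells of a type and less RNA per cell cannot be told apart.

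Proteasome genes were among the abundant transcripts of these cultures. The median tested member stood at 99.6 FPKM, compared with 12.9 FPKM for all 11263 tested genes, and 45 of the 46 lay above that latter median. Genes of the core were the most abundant. The 14 expressed alpha and beta genes, leaving out the immunoproteasome, had mean levels of 70.7 to 306 FPKM with a median of 218 FPKM. The 17 genes of the cap had a median of 108 FPKM and ranged from 37.5 to 145 FPKM. Summed over their genes, the core stood at 1.70 ± 0.0314 times the cap in male and 1.69 ± 0.027 times in female libraries (SD, n = 4).

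**Figure D1:**
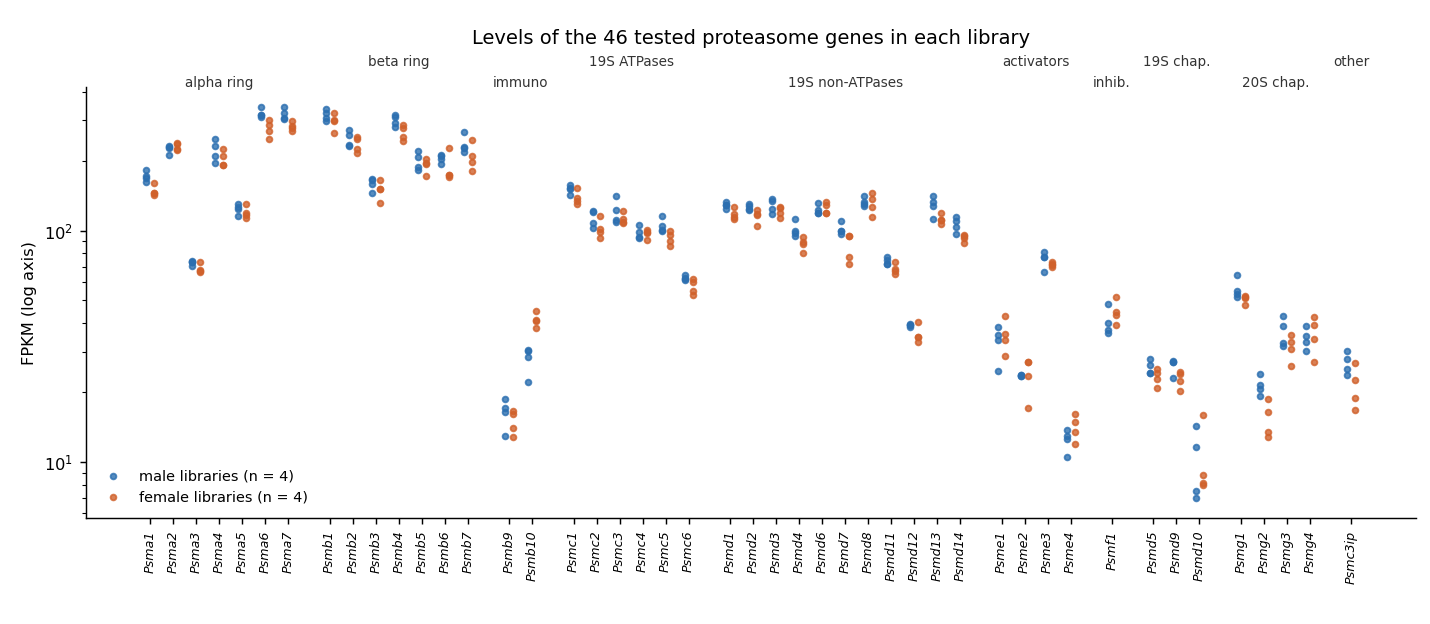
FPKM of the 46 tested members on a log axis, grouped by role, with a point for each male (blue) and female (orange) library. Core genes lie mostly above 100 FPKM, assembly chaperones and activators below, and Psmb10 is the gene whose 4 female libraries all stand above its 4 male ones.

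Levels within a ring were unequal, although each mature ring holds its subunits in equal number. In the alpha ring Psma7 was the highest, at a mean of 301 FPKM over the 8 libraries, and Psma3 the lowest at 70.7 FPKM, a ratio of 4.26. In the beta ring Psmb1 stood at 306 FPKM and Psmb3 at 155 FPKM, a ratio of 1.97. Among the ATPases of the cap Psmc1 stood at 145 and Psmc6 at 60.03 FPKM. Among the other cap subunits Psmd8 was the highest (132 FPKM) and Psmd12 the lowest (37.5 FPKM). Many proteasome genes have processed pseudogenes, and how the authors' counting treated shared reads is not given in the sources used here, so the level of a single subunit carries that uncertainty. By RefSeq coordinates, 14 of the 50 members overlap another gene, among them Psmb1 with Tbp and Psmd5 with Cutal.

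Male and female cultures differed at 1 of the 46 tested members, Psmb10. This share of 2.17% stands beside 6.04% of all 11263 tested genes called (limma with a mean-variance trend, Benjamini-Hochberg adjusted p under 0.05), and 2.89% were called as higher in female cultures. Each difference below is male minus female, in log2(FPKM + 1), with its standard error, and this scale understates the change of low genes. Of the 46 members 38 had a positive difference, as did 49.3% of all tested genes. The median difference was 0.12 for the members and -0.0038 for all tested genes. At an unadjusted p under 0.05 there were 12 members, 11 of them higher in male cultures, beside 21.2% of all tested genes in either direction and 11.3% higher in male cultures. The libraries of the sexes did not overlap for 10 members, beside 14.0% of all tested genes. Of these 10, 9 were higher in male cultures, namely Psma1, Psma6, Psma7, Psmc5, Psmd2, Psmd4, Psmd7, Psmd14 and Psmg2, which makes 19.6% of the members beside 7.26% of all tested genes. The female-higher member was Psmb10, beside 6.77% of all tested genes.

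**Figure D2:**
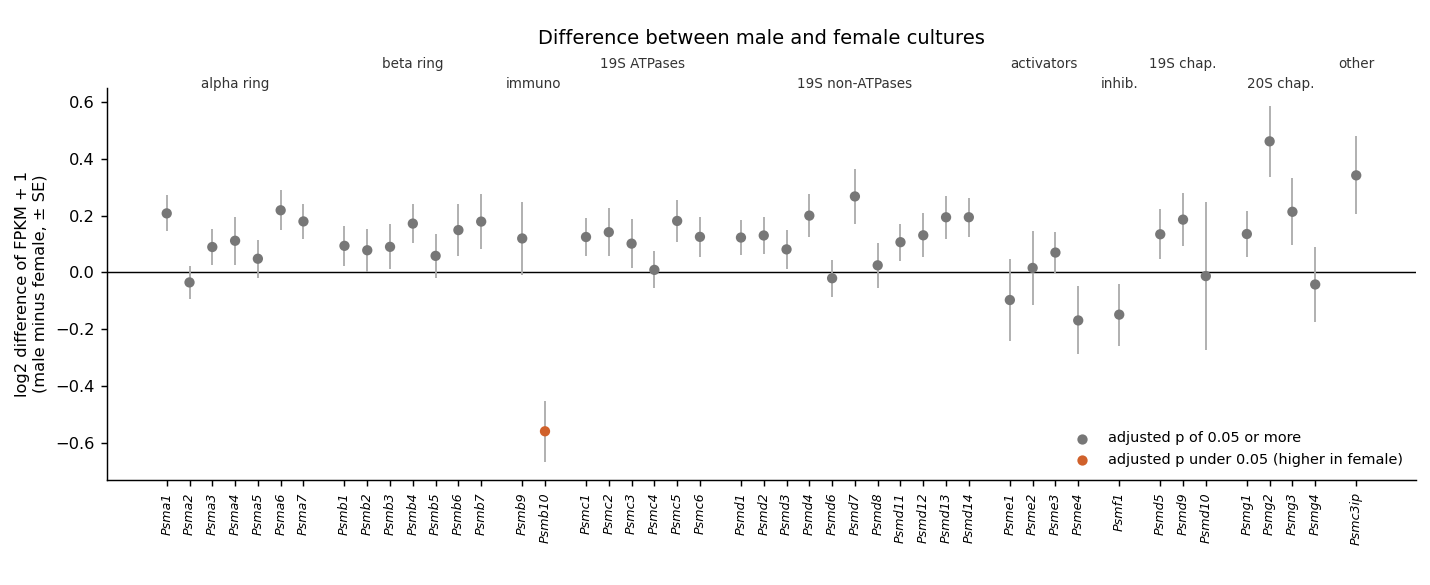
Log2 difference between male and female cultures (male minus female) with its standard error for the 46 tested members, grouped by role. Most points of the core and cap lie between 0 and 0.27, and Psmb10, at -0.56, is the only member past an adjusted p of 0.05.

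The immunoproteasome genes did not move as a group. Psmb10 encodes the inducible form of the trypsin-like subunit, and measured 30.2, 28.6, 22.1 and 30.5 FPKM in the male libraries 1 to 4. The female libraries 1 to 4 held it at 41.2, 45.2, 38.0 and 40.8 FPKM. Every female library stood above every male one. The mean was 27.9 ± 3.91 FPKM in male and 41.3 ± 2.96 FPKM in female cultures (SD, n = 4), 1.48 times as high in the latter, with a log2 difference of -0.56 ± 0.11 (limma adjusted p = 0.0131). Microglia and macrophage markers moved in the same direction (12 of 15 called, summed 47.9 to 65.7 against 181 to 228 FPKM), as did the summed OPC markers, and their part in the difference of Psmb10 was not tested.

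Psmb9, the inducible form of the caspase-like subunit, did not share that pattern. It measured 18.8, 12.9, 16.5 and 17.1 FPKM in the male libraries 1 to 4 and 14.0, 16.6, 16.1 and 12.9 FPKM in the female libraries 1 to 4. These values overlap, and the log2 difference of 0.12 ± 0.13 was not past the threshold (limma adjusted p = 0.65). Psmb8, the inducible form of the chymotrypsin-like subunit, was near 0 everywhere. It measured 0.44, 0, 0.286 and 0 FPKM in the male libraries 1 to 4 and 0.727, 0, 0.447 and 0.823 FPKM in the female libraries 1 to 4, and was too low to be tested. So of the 3 inducible catalytic genes, 2 were clearly detected and the third was not above 0.823 FPKM in any library.

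The constitutive catalytic genes stood far above their inducible counterparts in all 8 libraries. Psmb5 (chymotrypsin-like) measured 221, 189, 209 and 183 FPKM in the male libraries 1 to 4 and 197, 173, 204 and 195 FPKM in the female libraries 1 to 4. Psmb6 (caspase-like) was listed at 213, 195, 211 and 204 FPKM in the male and at 174, 174, 228 and 171 FPKM in the female libraries, in the same order. For Psmb6 female 3 stood above all male libraries, and the other 3 female libraries below all of them. Psmb7 (trypsin-like) was listed at 267, 229, 231 and 218 FPKM in the male and at 182, 198, 246 and 211 FPKM in the female libraries. None of the 3 was called (log2 differences 0.06 ± 0.08, 0.15 ± 0.09 and 0.18 ± 0.10; limma adjusted p = 0.727, 0.394 and 0.319). On the FPKM scale, which corrects for length, Psmb10 reached 11.8% ± 1.86 of Psmb7 in male and 20.1% ± 3.46 in female libraries (SD, n = 4). The male libraries lay between 9.60% and 14.0% and the female ones between 15.4% and 22.8%, with the lowest female value in female 3. Psmb7, the denominator, averaged 236 FPKM in male and 209 FPKM in female libraries, so this percentage differs more than Psmb10 itself. Psmb9 reached 7.91% ± 0.952 of Psmb6 in male and 8.04% ± 1.07 in female libraries, and Psmb8 at most 0.421% of Psmb5.

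**Figure D3:**
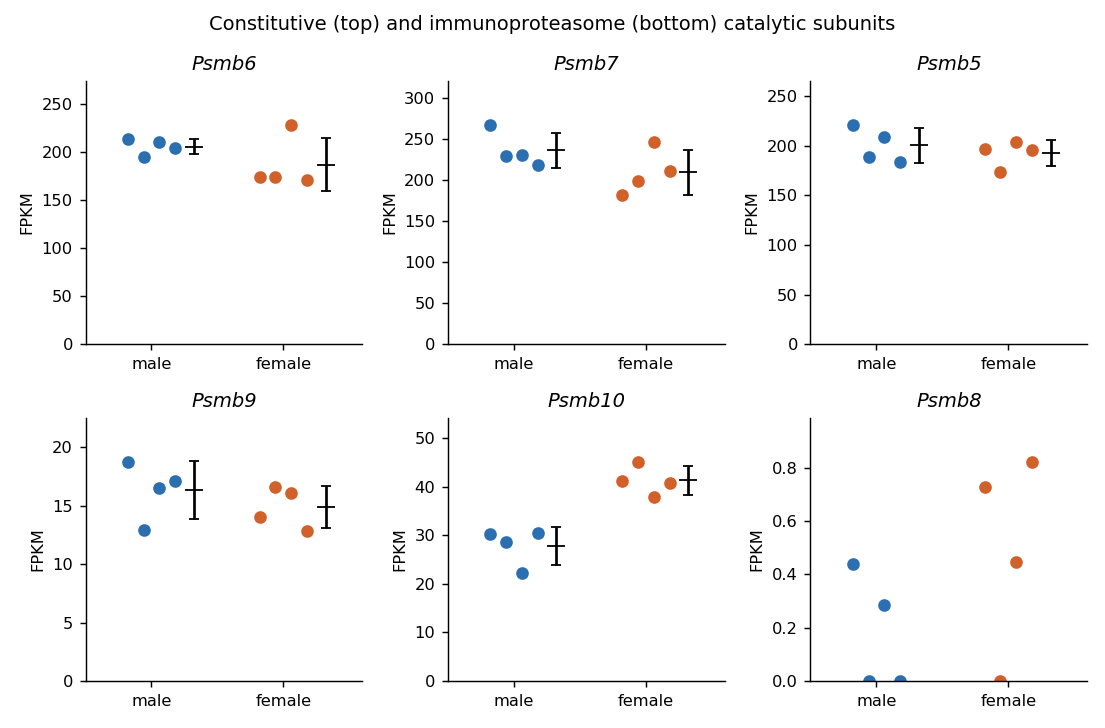
FPKM of the constitutive catalytic genes (top) and of their inducible counterparts (bottom), with a point per library and, beside the points, the mean and SD of 4 libraries (not drawn for Psmb8, which is at or near 0). The male and female points are apart for Psmb10 and overlap in the other 5 panels.

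Genes of the alpha ring lay mostly on the male side, and none of the 7 tested was called. Psma1 measured 169.9, 184, 163 and 173 FPKM in the male libraries 1 to 4 and 146, 146, 161 and 143 FPKM in the female libraries 1 to 4, without overlap (0.21 ± 0.06, limma adjusted p = 0.0845). Psma6 stood at 322 ± 14.4 against 277 ± 22.9 FPKM (SD, n = 4; 0.22 ± 0.07, adjusted p = 0.0965) and Psma7 at 320.0 ± 17.6 against 282 ± 11.6 FPKM (0.18 ± 0.06, adjusted p = 0.115). Psma2, at 226 ± 8.86 against 231 ± 8.02 FPKM, had a difference of -0.04 ± 0.06 and varied least of all members, with a coefficient of variation of 3.66% over the 8 libraries. Psma3, the lowest gene of the ring, stood at 72.9 ± 1.71 against 68.5 ± 3.31 FPKM (adjusted p = 0.467). Psma8, the alpha subunit of the testis, was listed at 0 in every library. In the beta ring all 7 constitutive genes had positive differences, from 0.06 for Psmb5 to 0.18 for Psmb7, and none was called. Psmb1 stood at 316 ± 16.4 against 297 ± 23.6 FPKM (adjusted p = 0.499) and Psmb3 at 159.9 ± 9.71 against 150.5 ± 14.4 FPKM (adjusted p = 0.572). Psmb11, the catalytic subunit of the thymus cortex, was listed at 0 in every library.

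Of the 17 genes of the regulatory cap 16 had positive differences, with a median of 0.12, and none was called. The largest belonged to Psmd7, a scaffold partner of the cap's deubiquitinase, which measured 110.4, 100.1, 99.4 and 97.1 FPKM in the male libraries 1 to 4. The female libraries 1 to 4 held Psmd7 at 77.4, 95.3, 95.0 and 72.1 FPKM (0.27 ± 0.10, limma adjusted p = 0.14). Psmd14, the deubiquitinase itself, stood at 107 ± 7.89 against 93.1 ± 3.24 FPKM (0.19 ± 0.07, adjusted p = 0.132), and Psmd4, a ubiquitin receptor, at 101 ± 7.90 against 87.9 ± 6.05 FPKM (0.20 ± 0.08, adjusted p = 0.16). A single cap gene lay on the female side, Psmd6, with 124 ± 6.05 against 126 ± 6.82 FPKM (-0.02 ± 0.06). The highest and lowest of the non-ATPase genes, Psmd8 (133 ± 5.90 against 131 ± 13.5 FPKM, adjusted p = 0.895) and Psmd12 (39.2 ± 0.541 against 35.8 ± 3.06 FPKM, adjusted p = 0.375), were not called. Of the 6 ATPase genes, Psmc5 had the largest difference (105 ± 7.25 against 92.9 ± 5.95 FPKM, 0.18 ± 0.07, adjusted p = 0.181). Psmc4 had the smallest (97.96 ± 5.64 against 97.3 ± 4.07 FPKM, 0.0088 ± 0.065). Psmc1 stood at 151 ± 6.03 against 139 ± 9.64 FPKM and Psmc6 at 62.6 ± 1.35 against 57.4 ± 4.21 FPKM (adjusted p = 0.316 and 0.348). Psma6, Psma7, Psmd7, Psmd14, Psmd4, Psmd6, Psmc5, Psmc4, Psma1 and Psma2 were singled out after their values were seen.

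Of the 4 activator genes 2 had positive and 2 negative differences, the inhibitor gene had a negative one, and none was called. Psme1 and Psme2 form the interferon-inducible activator. Psme1 measured 38.2, 33.6, 24.8 and 35.5 FPKM in the male libraries 1 to 4 and 33.8, 28.7, 35.9 and 42.8 FPKM in the female libraries 1 to 4. Psme2 was within 23.5 to 23.7 FPKM in all 4 male libraries and between 17.2 and 27.1 FPKM in the female ones. The log2 differences were -0.10 ± 0.15 and 0.02 ± 0.13 (limma adjusted p = 0.762 and 0.964). Psme3, the nuclear activator, was the highest of the 4 at 75.3 ± 6.19 against 71.5 ± 1.26 FPKM (SD, n = 4; adjusted p = 0.638). Psme4, whose product caps the core in the nucleus and acts on acetylated histones, was the lowest at 12.4 ± 1.38 against 14.1 ± 1.78 FPKM (-0.17 ± 0.12, adjusted p = 0.467). The inhibitor gene Psmf1 stood at 40.4 ± 5.32 against 44.8 ± 5.32 FPKM (-0.15 ± 0.11, adjusted p = 0.485). Whether these differences differ from those of the core was not tested.

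The largest positive difference among the members belonged to an assembly chaperone. Psmg2, which with Psmg1 holds the alpha ring during assembly, measured 20.6, 19.4, 21.5 and 24.1 FPKM in the male libraries 1 to 4 and 12.9, 16.5, 18.8 and 13.5 FPKM in the female libraries 1 to 4. All male libraries stood above all female ones. The difference of 0.46 ± 0.13 missed the threshold (limma adjusted p = 0.0559), and it passed at a mean filter of 5 FPKM (adjusted p = 0.0433, beside 8.25% of all genes tested there) and without female 3 (0.56, adjusted p = 0.0206), while with depth as a covariate it was 0.38 (adjusted p = 0.165). Its partner Psmg1 stood at 56.0 ± 5.86 against 50.8 ± 2.00 FPKM (SD, n = 4; 0.13 ± 0.08, adjusted p = 0.388). Psmg3 (36.5 ± 5.14 against 31.3 ± 3.94 FPKM) and Psmg4 (34.3 ± 3.51 against 35.7 ± 6.75 FPKM), which form the other chaperone pair of the core, were not called. Among the chaperones of the cap, Psmd5 stood at 25.7 ± 1.75 against 23.3 ± 1.79 FPKM and Psmd9 at 26.1 ± 1.99 against 22.9 ± 1.89 FPKM (adjusted p = 0.431 and 0.281). Psmd10, the oncoprotein gankyrin, is the 1 member that RefSeq places on the X chromosome. Psmd10 measured 7.51, 11.6, 6.97 and 14.4 FPKM in the male libraries 1 to 4 and 16.1, 8.80, 8.09 and 7.99 FPKM in the female libraries 1 to 4. Male 2, male 4 and female 1 were high, which gave it the largest coefficient of variation of the tested members (33.8%), and the difference between the sexes was small against its error (-0.01 ± 0.26, adjusted p = 0.985). Psmc3ip stood at 26.9 ± 2.86 against 21.2 ± 4.38 FPKM (0.34 ± 0.14, adjusted p = 0.181), and the pseudogene Psme1-ps1 was at or below 0.93 FPKM in every library.

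By library, the members' median level was graded and did not part the sexes. The median log2 deviation of the 46 members from their own 8-library means was 0.12, 0.045, 0.063 and 0.0089 in male 1 to male 4. In female 1 to female 4 it was -0.13, -0.052, 0.012 and -0.064. Female 3, the deepest female library, stood above male 4, and female 1, the shallowest library (relative depth 0.303), was the lowest. Within each sex the order was that of depth apart from the following libraries. Male 2 (relative depth 0.553) lay above male 4 (0.557), and female 2 (0.366) above female 4 (0.533). Male 2 and male 4 lay above female 2 and female 4. The same median over all tested genes stayed between 0.0011 and 0.012. A fit that held depth as a covariate gave a members' median difference of 0.069, compared with 0.12 in the reported fit. In it 35 of 46 were positive, compared with 38, and Psmb10 was called. The mitochondrial share also moved with sex. Of 10 tested neuron markers 5 were called as higher in male cultures (Dlx1, Gad1, Gad2, Stmn2 and Syt1). Their male means were 1.62 (Stmn2) to 4.87 (Gad1) times the female ones. On the female side lay 3 markers (Map2, Rbfox3 and Tubb3), none of them called. The summed levels, of which Map2 (mean 159 FPKM) was the largest part, overlapped. The part of neuron markers in the members' median was not tested. Without male 1 and female 3 together the members' median was 0.11 with 39 positive, and 4 members were called, Psmb10 as higher in female and Psma1, Psmb6 and Psmg2 as higher in male cultures, beside 7.83% of all genes tested and 4.25% higher in male cultures. Leaving out female 3 alone called the same 4 genes, beside 7.17% and 4.03%.

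**Figure D4:**
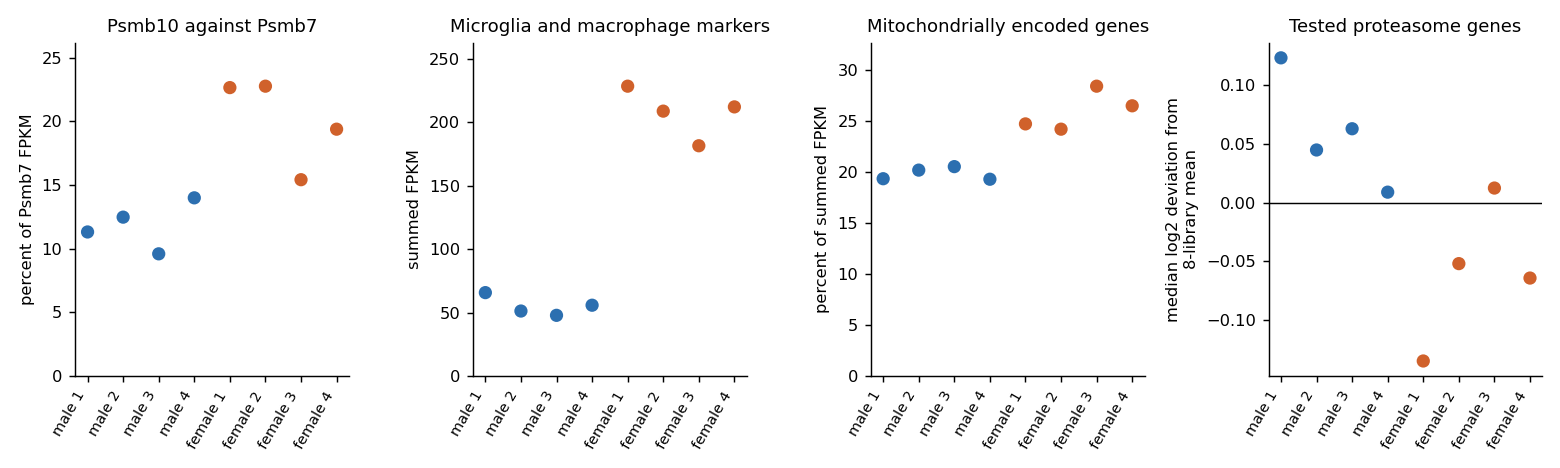
Values per library, male in blue and female in orange, of Psmb10 as a percentage of Psmb7, the summed FPKM of microglia and macrophage markers, the share of summed FPKM in mitochondrially encoded genes, and the median log2 deviation of the tested proteasome genes. The first 3 part the sexes without overlap, while in the last female 3 (0.012) lies above male 4 (0.0089).

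Scaling the libraries by their full sum changed the number of members called, while quantile normalization and median-ratio scaling did not. Each of the latter called 1 member, Psmb10, beside 715 of 11263 and 680 of 11261 genes tested. When each library was rescaled to the same summed value (the TPM scale), 13 members were called, 12 of them higher in male cultures, beside 8.13% of all genes tested on that scale and 6.55% higher in male cultures. They were Psma1, Psma6, Psma7, Psmb4, Psmb7, Psmc1, Psmc5, Psmd4, Psmd7, Psmd13, Psmd14 and Psmg2, with Psmb10 higher in female cultures. On the TPM scale the share of all called genes that were higher in male cultures was 80.5%, compared with 52.1% on the deposited scale, and the median of all genes was 0.071. The members' median was 0.20, with 42 of 46 positive. When mitochondrially encoded genes were left out of the sum, Psmb10 was the 1 member called, beside 5.02% of all genes tested, with a members' median of 0.089, a median of all genes of -0.035 and 35 of 46 positive. Psmb10 was called as higher in female cultures under all 20 alternative fits, with log2 differences of -0.64 to -0.46 and adjusted p of 0.00953 to 0.0467.

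**Figure D5:**
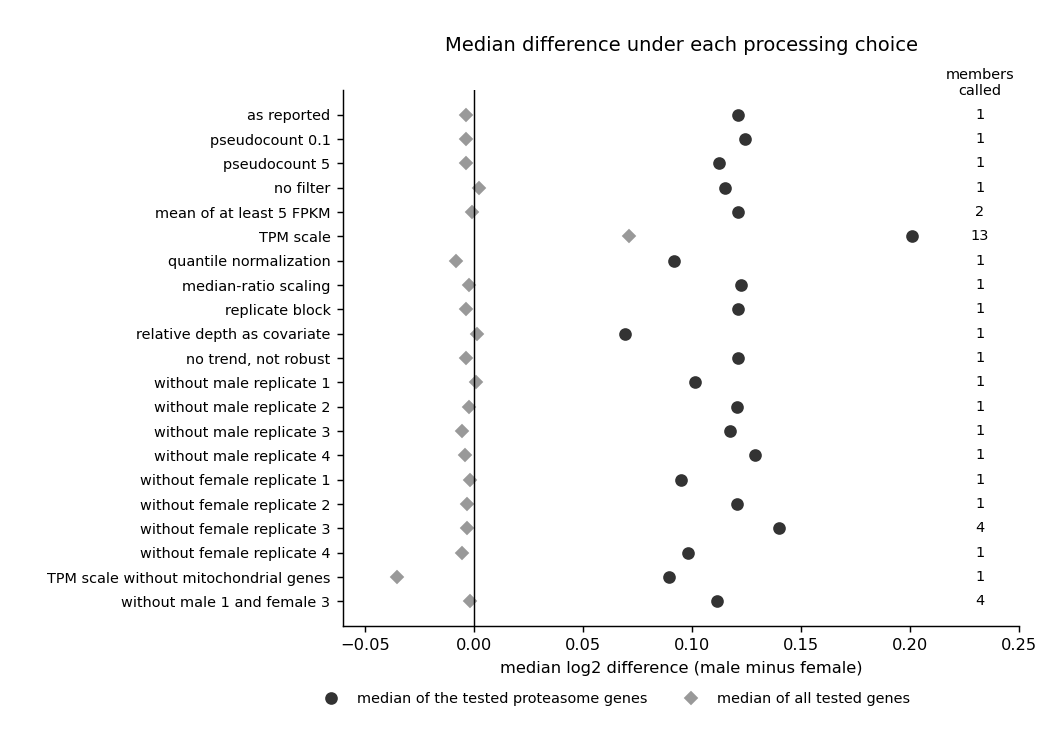
Median log2 difference (male minus female) of the tested proteasome genes (circles) and of all tested genes (diamonds) under each processing choice, with the number of members called at the right. The members' median stays above that of all genes in each row, between 0.069 and 0.20, and the count is 13 on the TPM scale and at most 4 elsewhere.

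The genes around the proteasome were read from 7 lists, of which 90 rows were tested and 1 was called, beside 6.04% of all tested genes. Of 12 tested partners of the proteasome (receptors, deubiquitinases and assembly factors) none was called and 10 were positive, with a median of 0.093. The smallest p there belonged to Fbxo7, a ubiquitin ligase subunit that binds the inhibitor PI31, at 34.8 ± 3.30 against 44.2 ± 4.60 FPKM (SD, n = 4; -0.34 ± 0.09, limma adjusted p = 0.0628), and to Txnl1 (99.1 ± 8.64 against 87.5 ± 2.88 FPKM, adjusted p = 0.207). Of 5 rows of ubiquitin genes none was called (median -0.042). Of these, 1 of the rows named Rps27a stood at 135 ± 11.1 against 121 ± 24.2 FPKM (adjusted p = 0.484). Of 28 genes of ubiquitin activation and conjugation 19 were positive and none was called (median 0.08). They include Ube2e3 (103 ± 3.81 against 85.7 ± 7.08 FPKM, adjusted p = 0.0559) and Ube2t (40.6 ± 5.84 against 25.9 ± 7.84 FPKM, 0.67 ± 0.21, adjusted p = 0.0964). Of 13 shuttle factors, which carry substrates to the proteasome, 8 were positive and none was called (median 0.019). Bag6 (100.4 ± 3.07 against 110.2 ± 4.77 FPKM, adjusted p = 0.232) and Faf1 (44.0 ± 3.04 against 39.2 ± 2.83 FPKM, adjusted p = 0.282) had the smallest p.

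Of the genes that act on proteasome gene expression, those of Nrf1, Nrf2 and their activation were read, and none of the 10 tested was called. Nfe2l1, the gene of Nrf1, measured 17.6, 17.7, 18.3 and 20.7 FPKM in the male libraries 1 to 4 and 22.4, 18.7, 18.3 and 16.5 FPKM in the female libraries 1 to 4 (-0.03 ± 0.11, limma adjusted p = 0.924). Nfe2l2, the gene of the related factor Nrf2, was low, at 0.309 to 2.63 FPKM over the 8 libraries (adjusted p = 0.942). The list holds 10 tested genes, with the partners and processing enzymes of these factors, and 7 were negative (median -0.027). Mafg (12.4 ± 1.99 against 10.3 ± 2.10 FPKM, SD, n = 4) and Sel1l (33.002 ± 4.62 against 37.2 ± 3.98 FPKM) had the smallest p (adjusted p = 0.386 and 0.43). Of 8 tested Nrf2 target genes 1 was called, the peroxidase gene Prdx1, which was higher in male cultures (337 ± 9.63 against 269 ± 20.2 FPKM, 0.33 ± 0.07, adjusted p = 0.0153), and 6 were positive. The call of Prdx1 was lost without male 2, male 3 or female 4 in turn (adjusted p = 0.0566, 0.0558 and 0.0533) and with moderation that used neither a trend nor the robust option (adjusted p = 0.0629). Of 15 tested genes of antigen processing and the interferon response none was called, and 9 were negative (median -0.048). Tap1, the peptide transporter gene that lies next to Psmb9, stood at 9.11 ± 1.67 against 7.28 ± 1.04 FPKM (0.28 ± 0.15, adjusted p = 0.311), and Stat2 at 8.03 ± 0.909 against 6.94 ± 1.31 FPKM (adjusted p = 0.487).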

How the data were processed

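The authors deposited FPKM values in 1 table of genes by libraries, per the file headers. The submitters' processing notes name Trimmomatic and FastQC. What aligned and counted the reads, on which build and whether by strand, is not given in the sources used here. Libraries were made from total RNA with a strand-specific kit, per the labels' protocols. Sex and library number were taken from the sample titles. Values were taken as log2(FPKM + 1), genes under a mean of 1 FPKM were dropped, and limma (version 3.58.1, R 4.3.3), with robust moderation and a mean-variance trend, was fitted once to all 11263 tested genes, with Benjamini-Hochberg adjustment over all of them and a threshold of 0.05. The test was tried on simulated data with known changes. These were independent draws from the mean and spread of each gene, without depth or library effects. The trial therefore cannot show whether calls in these libraries are sound. Members, lists and tests were chosen with earlier results of these data known. Described in full are called members, the catalytic genes and their inducible counterparts, activators, and the highest and lowest gene of each role. Of each list the called genes, or else the 2 with the smallest p, are named, and Nfe2l1 and Nfe2l2 always. A gene that this rule names is not reported here. Alternatives were other pseudocounts, filters, scalings, moderation and threshold, a replicate block, depth as a covariate, and libraries left out. FPKM values carry no counts, so no counting interval could be given.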

Additional observations from a re-analysis of the deposited data

Results flagged for a closer look

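In each sex the highest and lowest of the 4 libraries were compared with the rest for 61 named genes, that is 122 groups, and 5 libraries stood apart from the others of their group. Chance alone gives about 1 in 20 such groups. Psmb6 was at 228 FPKM in female 3 and at 171 to 174 FPKM in the other female libraries. Psmd10 was at 16.1 FPKM in female 1 and at 7.99 to 8.80 FPKM in the others. Psma3 was at 73.4 FPKM in female 2 and at 66.3 to 67.5 FPKM in the others. Psmd9 was at 23.2 FPKM in male 4 and at 26.98 to 27.4 FPKM in the others. Fbxo7 was at 51.1 FPKM in female 4 and at 41.6 to 42.2 FPKM in the others.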

How the results depend on the processing

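The direction of the members' median difference was the same under all 20 alternative fits. It was 0.20 on the TPM scale and 0.095 to 0.14 with a library left out. The count of members called was 1 in the reported fit (beside 6.04% of all genes tested) and 13 on the TPM scale (beside 8.13%). It was 2 at a mean of at least 5 FPKM (beside 8.25%) and 4 without male 1 and female 3 (beside 7.83%). At an adjusted p threshold of 0.1 it was 4, beside 1149 of all 11263 tested genes. With a library left out it was 1 to 4. The count of all genes called, 680 in the reported fit, was 367 with relative depth as a covariate, 424 with moderation that used neither a trend nor the robust option, 1149 at a threshold of 0.1 and 296 to 808 with a library left out. With the replicate number as a block it was 397, and 1 member, Psmb10, was called. Same-numbered libraries of the sexes correlated at -0.085 to 0.077 in their deviations over 11263 genes, and 1 of 4 male libraries correlated best with its own number. The highest correlation was that of male 1 with female 3 (0.242). These values cannot show whether libraries of a number were prepared together, which the labels do not say. Among single named genes, 28 values gained a call, 4 lost one (all of Prdx1) and none of the called ones changed sign. TPM rescaling without mitochondrially encoded genes was chosen after seeing the data. Depth limits the low members Psmb8 and Psme1-ps1.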

Other observations

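The coefficient of variation over the 8 libraries was below 10% for 29 of the 46 tested members (63.0%), compared with 22.4% of all tested genes. Among the 2069 tested genes whose mean level lay between 35.6 and 153 FPKM, the middle range of the members, 49.9% were below 10%. The median was 9.19% for the 46 tested members and 10.0% for those genes. That range runs from the lower to the upper quartile of the members' own levels. By this definition all members below or above the quartiles lie outside it. Among them are the 7 constitutive beta genes, which lie above, and the 3 chaperones of the cap, which lie below. The comparison is therefore only partly matched for level. The steadiest member was Psma2 (3.66%), followed by Psmc4 (4.67%), Psma3 (4.78%) and Psmd6 (4.85%). The most variable after Psmd10 were Psmb10 (22.7%), Psmg2 (21.2%) and Psmc3ip (18.96%). Summed over all 50 members, the proteasome genes made up 0.804% to 0.816% of the summed FPKM in male and 0.689% to 0.733% in female libraries. That sum includes the mitochondrially encoded genes, which held 19.3% to 20.5% and 24.2% to 28.4% of it. With them left out of the sum, the members made up 0.996% to 1.01% in male and 0.935% to 0.967% in female libraries, a smaller gap that still did not overlap.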
